A study of Mus musculus with 9 samples.

Results

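The phagocyte NADPH oxidase is described here through 6 genes: Cybb, Cyba, Ncf1, Ncf4, Rac1 and Rac2. They were taken by Entrez gene identifier from a table of 27179 genes, so membership used no measured value, although the set was proposed after earlier results of these data were known. All 6 passed the filter on low counts and were among 12484 tested genes. Cybb passed it through its counts in the wild-type Snai1 group.

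The cells were HPC7, a progenitor line of mouse blood that was cultured with 100 ng/ml of stem cell factor, and the readout was RNA-seq of poly(A) RNA. There were 3 libraries in each of 3 groups. The first group received wild-type Snai1, a zinc-finger transcription factor, and the second a Snai1 whose phenylalanine at residue 5 was changed to alanine, which impairs its binding to the demethylase Lsd1. The last group received the empty vector. All 3 groups share one cell line, the MSCV-IRES-GFP retrovirus and a sort for green fluorescence 1 week after transduction, so the empty-vector cells were infected and sorted too. Nothing in the labels says that the libraries came from separate transductions or cultures, so p-values measure only the spread between these libraries.

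The oxidase transfers electrons from NADPH across a membrane to oxygen and so makes superoxide, which phagocytes use against engulfed microbes. Its catalytic core is a membrane cytochrome made of gp91phox, the product of Cybb, and p22phox, the product of Cyba. On stimulation, cytosolic subunits that include p47phox (Ncf1) and p40phox (Ncf4) move to the membrane together with a Rac GTPase. Loss of a core or cytosolic subunit in people is a cause of chronic granulomatous disease.

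Library totals lay between 18332451 and 20860314 counts. A floor of 3 counts corresponds to 0.144 to 0.164 CPM, a counts-per-million value on the library size after TMM scaling. Snai1 averaged 492 ± 68.5 CPM with wild-type Snai1, 460 ± 40.2 CPM with mutant Snai1 and 0.828 ± 0.205 CPM with empty vector (SD, n = 3 each), and its count includes reads from the vector. Progenitor markers were present in every library, and their 6 genes summed to 7250 to 8880 CPM with wild-type Snai1, 6750 to 6950 CPM with mutant Snai1 and 6720 to 6960 CPM with empty vector. With wild-type Snai1 against empty vector 2 of the 6 were called higher in edgeR, beside 25.2% of all tested genes. Without the libraries named next 4 were higher and 1 lower, but calls over all genes also rose, from 6172 to 7148. Wild-type replicate 1 and empty-vector replicate 1 stood apart from their groups. A chi-square statistic between replicates was 47.2 to 73.4 per degree of freedom for pairs that held one of them, and 4.72 to 8.03 for the other pairs, so no library was a repeat of another. Counts that changed by over 1.5 times without both libraries are given beside the result.

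With wild-type Snai1, 5 of the 6 subunit genes were higher than with empty vector, and Rac2 did not pass the test (edgeR's quasi-likelihood test, adjusted p under 0.05). In this comparison 25.2% of all tested genes were called higher, 24.3% lower and 49.4% in either direction. Cybb entered the test only through its wild-type reads, so its call was bound to follow. Of the remaining 5 subunits 4 were called higher, and their median log2 fold change was 0.47, beside 0.00 for all tested genes. With mutant Snai1, 0 of the 6 were called against the same empty-vector libraries, where 0.00801% of tested genes, which is Snai1 itself, were called. That background of 1 gene was 29 without both libraries that stood apart and 62 without wild-type replicate 1 alone. By unadjusted p under 0.05 the mutant comparison held 3 of 6 subunits, beside 4.83% of tested genes, and DESeq2 called 0 of 6. Set directly against the mutant, wild-type Snai1 gave 4 subunits higher, where 24.5% of tested genes were called higher, and 1 lower, where 23.4% were called lower and 47.9% in either direction. The Cybb call was bound to follow here too, and of the remaining 5 subunits 3 were higher and 1 lower. The comparisons with empty vector share those 3 libraries.

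**Figure D1:**
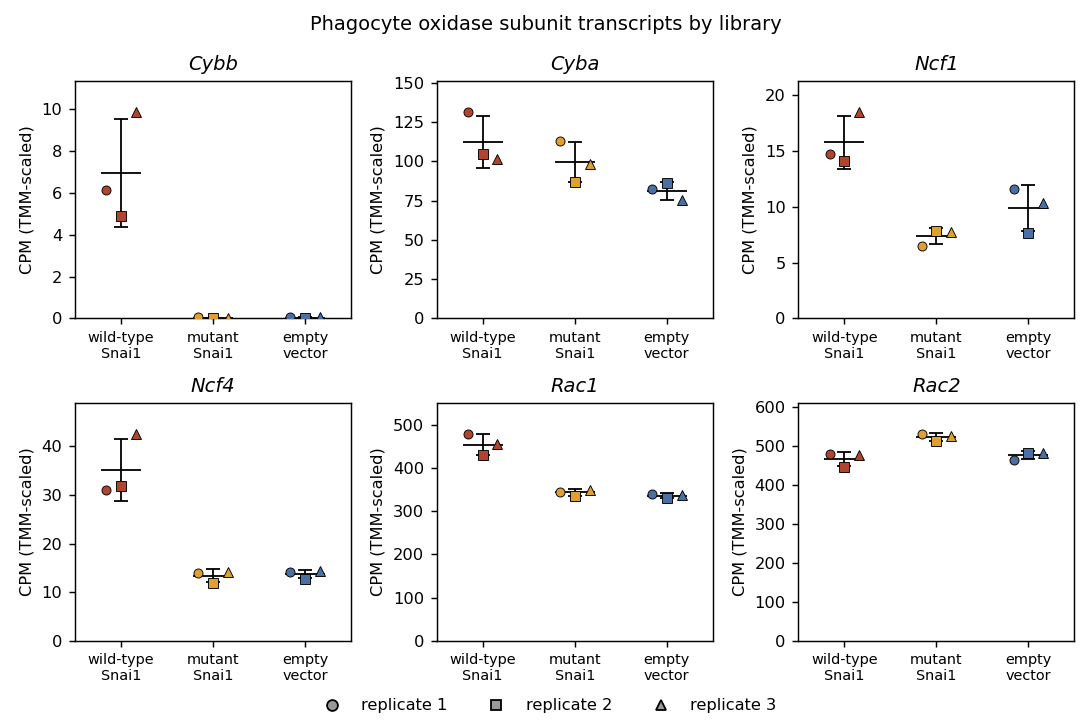
Level of each of the 6 subunit genes in every library, in CPM on a linear axis of its own, with wild-type Snai1 left, mutant Snai1 in the middle and empty vector right. Points are libraries, with a shape for each replicate number, and lines are group means with SD (n = 3). Cybb lies between 4.89 and 9.88 CPM in the wild-type libraries and at or below 0.0537 CPM in the other 6.

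Cybb encodes gp91phox, the flavocytochrome chain that carries the electrons, and lies at chrX:9435252-9487766 (RefSeq, GRCm38.p6). It had 123, 100 and 197 counts in the libraries with wild-type Snai1, against 1, 0 and 0 with mutant Snai1 and 1, 0 and 1 with empty vector. Every wild-type library was far above all 6 others, which held 0 or 1 read each. In CPM the wild-type libraries averaged 6.97 ± 2.60 (SD, n = 3).

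As a ratio of counts scaled to library size, Cybb with wild-type Snai1 was 202 times its level with empty vector, with a 95% counting interval of 55.6 to 1680. Against mutant Snai1 the ratio was 412, with an interval of 73.5 to 16300. These intervals cover counting error only. With 1 count in all mutant libraries and 2 in all empty-vector libraries, a difference between those groups was not detectable at this depth, and no fold is given. In a bulk sample, fewer cells of a type and less RNA per cell cannot be told apart, so the Cybb level may come from all cells or from some.

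Cyba encodes p22phox, the partner chain that also serves several non-phagocyte oxidases, and lies at chr8:122424771-122432940. It had 131, 105 and 101 CPM with wild-type Snai1, 113, 87.1 and 98.4 CPM with mutant Snai1, and 82.2, 86.4 and 75.3 CPM with empty vector. All wild-type and all mutant libraries exceeded all empty-vector libraries, while the wild-type and mutant ranges overlapped. Against empty vector the log2 fold change was 0.47 (SE 0.12, adjusted p = 0.00763, edgeR's quasi-likelihood test), which is 1.38-fold. Without wild-type replicate 1 and empty-vector replicate 1 it was 0.34 with adjusted p = 0.0266.

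With mutant Snai1, Cyba differed from empty vector by a log2 fold change of 0.29 (SE 0.12), which had an unadjusted p = 0.0333 in edgeR but did not pass after adjustment (adjusted p = 0.98). The direct difference between wild-type and mutant Snai1 was 0.18 on the log2 scale, with a 95% interval from -0.08 to 0.44 and adjusted p = 0.235 in edgeR's quasi-likelihood test. It was 0.04 without the wild-type and empty-vector libraries that stood apart. An effect of the wild-type protein on Cyba that the mutant lacks was therefore not shown.

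Upstream sequence is shown for both cytochrome genes, because they encode partner chains of one cytochrome and yet differed unequally between groups. Promoter windows from RefSeq (GRCm38.p6) were found for 3 of the 6 members, Cybb, Cyba and Ncf1. Each was searched on both strands for CAGGTG, an E-box form bound by Snail-family factors, for GAGGAAGT, an ETS-type site of the kind bound by PU.1, and for the composite ETS and interferon-regulatory-factor site (GGAA, any pair of bases, then GAAA). In people a composite of that kind in the CYBB promoter is known to bind PU.1 with IRF proteins. The 250 bases before each start follow, 5′ to 3′ on the gene's strand, with a CAGGTG match in capitals.
Cybb, chrX:9469325-9469574, minus strand: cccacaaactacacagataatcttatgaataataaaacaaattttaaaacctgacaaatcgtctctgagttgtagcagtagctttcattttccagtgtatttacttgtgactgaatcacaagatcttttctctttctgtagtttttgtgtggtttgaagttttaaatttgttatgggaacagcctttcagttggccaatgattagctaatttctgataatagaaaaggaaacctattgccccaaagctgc
Cyba, chr8:122432941-122433190, minus strand: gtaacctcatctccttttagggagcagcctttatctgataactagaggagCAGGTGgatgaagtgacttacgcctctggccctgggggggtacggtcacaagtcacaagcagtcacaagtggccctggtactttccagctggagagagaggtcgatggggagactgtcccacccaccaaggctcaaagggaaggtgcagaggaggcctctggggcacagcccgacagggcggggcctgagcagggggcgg

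The Cybb sequence lies within the span of the gene, whose annotation reaches further upstream, and held neither CAGGTG nor GAGGAAGT. The Cyba sequence held 1 CAGGTG, 195 to 200 bases before the start (chr8:122433135-122433140). Across 32851 RefSeq windows of 300 bases, which add 50 bases after the start, CAGGTG occurred in 20.2%, GAGGAAGT in 3.2% and the composite site in 2.72%. The Cybb window held 1 composite site on the opposite strand, at bases 4 to 13 after the start (chrX:9469312-9469321), shown in capitals on the gene's strand with 10 bases on each side.
Cybb composite match: aagctgctgtTTTCATTTCCtcatcagaag
The Ncf1 window held 0 matches to the 3 motifs. A match describes letters in a window and is no evidence of binding.

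Ncf4 encodes p40phox, which binds phosphatidylinositol 3-phosphate on phagosome membranes, and lies at chr15:78244164-78262582. It had 31.1, 31.8 and 42.5 CPM with wild-type Snai1, 14.0, 11.9 and 14.2 CPM with mutant Snai1, and 14.1, 12.7 and 14.3 CPM with empty vector. The wild-type libraries stood above all others without overlap, and the mutant and empty-vector ranges overlapped. The log2 fold change was 1.36 against empty vector (SE 0.13, adjusted p = 1.79e-05) and 1.39 against mutant Snai1 (SE 0.13, adjusted p = 1.64e-05) in edgeR's quasi-likelihood test, or 2.56-fold and 2.63-fold.

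Mutant Snai1 against empty vector gave Ncf4 a log2 fold change of -0.04, with a 95% interval from -0.34 to 0.27. Without the wild-type and empty-vector libraries that stood apart, the wild-type difference from empty vector was 1.45.

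Ncf1 encodes p47phox, the phosphorylated organizer that docks on p22phox, and lies at chr5:134220053-134229628. It had 14.7, 14.0 and 18.5 CPM with wild-type Snai1, 6.52, 7.83 and 7.77 CPM with mutant Snai1, and 11.6, 7.61 and 10.4 CPM with empty vector. Wild-type values lay above the rest, and the mutant libraries overlapped the lower end of the empty-vector range. The wild-type log2 fold change was 0.68 against empty vector (SE 0.17, adjusted p = 0.0063) and 1.09 against mutant Snai1 (SE 0.17, adjusted p = 0.000422) in edgeR's quasi-likelihood test. With mutant Snai1, the difference from empty vector was -0.41 (SE 0.17, adjusted p = 0.98 in edgeR), so the larger gap to the mutant came with lower mutant values that did not pass the test.

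The RefSeq spans of Ncf1 and its opposite-strand neighbour Gtf2ird2 do not overlap and lie 1906 bases apart. In GENCODE M21, whose gene models are longer, their exons share 408 bases, and 7.45% of the 50-base words of Ncf1 occur in other genes, nearly all there. Which annotation and strand setting the counting used is not given in the sources used here, so any reads from those bases cannot be assigned with certainty. Gtf2ird2 had a log2 fold change of -0.06 with wild-type Snai1 against empty vector (adjusted p = 0.537 in edgeR).

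Rac1, the GTPase found in nearly all cell types, lies at chr5:143505481-143528031. It had 479, 431 and 455 CPM with wild-type Snai1, 346, 335 and 351 CPM with mutant Snai1, and 341, 330 and 337 CPM with empty vector. The wild-type libraries were above all others, and mutant and empty-vector values overlapped. The log2 fold change was 0.44 against empty vector (SE 0.05, adjusted p = 8.47e-05) and 0.40 against mutant Snai1 (SE 0.05, adjusted p = 0.000148) in edgeR's quasi-likelihood test, which are 1.35-fold and 1.32-fold.

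Rac1 and Daglb, its neighbour on the opposite strand, lie 1038 bases apart in RefSeq and do not overlap there. The deposited Rac1 length was 2269 bases. The GENCODE M21 model of Rac1, which is on the minus strand, ends 1847 bases further out, on the side of Daglb. Its exons share 2309 bases with those of Daglb, 462 of them within the RefSeq span. In GENCODE M21, 50.3% of the 50-base words of Rac1 occur in Daglb. The deposited length is shorter than the 2309 shared bases, so the counts did not use that Rac1 model. The 50.3% therefore does not describe the deposited Rac1 count. Any reads from the 462 bases within the RefSeq span cannot be assigned with certainty. Daglb averaged 24.7 ± 0.413 CPM with wild-type Snai1, 21.6 ± 0.524 CPM with mutant Snai1 and 22.1 ± 1.56 CPM with empty vector (SD, n = 3 each). The wild-type log2 fold change of Daglb was 0.16 against empty vector (adjusted p = 0.1) and 0.20 against mutant Snai1 (adjusted p = 0.0542) in edgeR. Without empty-vector replicate 3 the first was 0.23 with adjusted p = 0.0418. With RLE scaling the second was 0.21 with adjusted p = 0.0459, both in edgeR.

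Rac2, the blood-cell GTPase that serves the oxidase in neutrophils, lies at chr15:78559169-78572783. It had 478, 446 and 477 CPM with wild-type Snai1, 530, 512 and 525 CPM with mutant Snai1, and 464, 482 and 483 CPM with empty vector. The mutant libraries were the highest, above all others, and wild-type and empty-vector values overlapped. Against empty vector, Rac2 with wild-type Snai1 differed by -0.03 on the log2 scale, with a 95% interval from -0.14 to 0.08.

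With mutant Snai1, Rac2 was 0.13 above empty vector on the log2 scale (SE 0.05), with an unadjusted p = 0.0221 in edgeR and adjusted p = 0.98. With wild-type Snai1 it was lower than with the mutant by edgeR's quasi-likelihood test, at -0.16 on the log2 scale (SE 0.05, adjusted p = 0.0209). That call was lost when 1 library was left out: adjusted p was 0.0824 without wild-type replicate 2, 0.0729 without mutant replicate 1 and 0.0601 without mutant replicate 3 in the same edgeR test. Rac1 and Rac2 share no 50-base word with each other.

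In ranges, 5 of the 6 subunits did not overlap between wild-type Snai1 and empty vector, beside 56.6% of all tested genes. Between mutant Snai1 and empty vector 2 of 6, Cyba and Rac2, did not overlap, beside 17.6% of tested genes. Between wild-type and mutant Snai1 it was 5 of 6, beside 55.8%. Cybb is among the 5 in both wild-type comparisons. It entered the test only through its wild-type reads, so its lack of overlap was bound to follow.

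**Figure D2:**
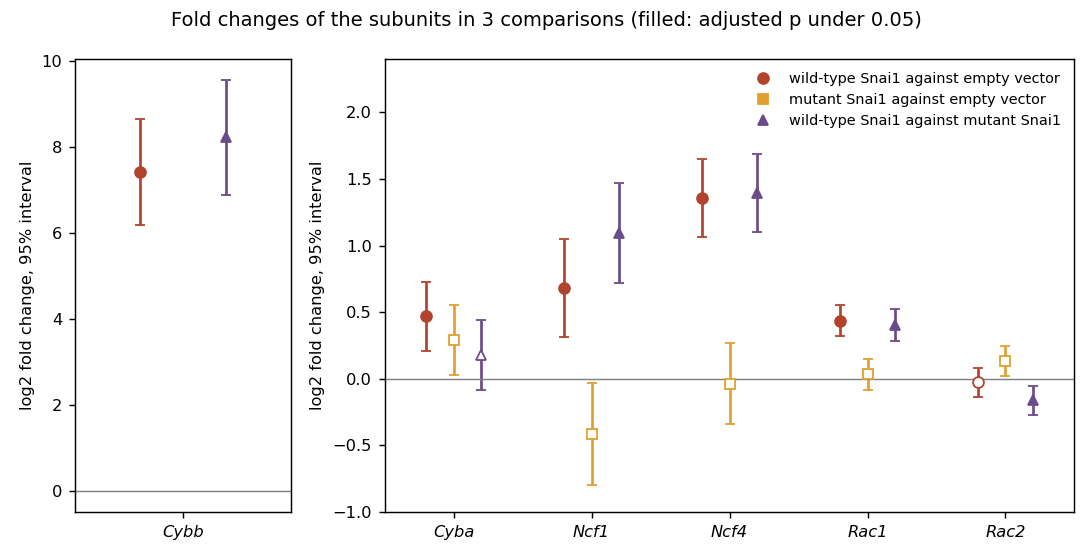
Log2 fold change of each subunit with its 95% interval in 3 comparisons, wild-type Snai1 against empty vector, mutant Snai1 against empty vector and wild-type against mutant Snai1. Filled symbols have an adjusted p under 0.05, and Cybb has its own axis and no mutant value, since both groups held 1 or 2 reads in all. Fitted Cybb values are 7.42 and 8.23, while the other called values lie between -0.16 and 1.39.

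Levels of different genes were compared only per kilobase of the deposited gene length. With empty vector the order by mean CPM per kilobase was Rac2 at 157 ± 3.46, Rac1 at 148 ± 2.53, Cyba at 107 ± 7.41, Ncf4 at 9.43 ± 0.599, Ncf1 at 3.62 ± 0.749 and Cybb at 0.00749 (SD, n = 3), the last resting on 2 reads. The mutant group had the same order, but there the ranges of Rac1 and Cyba overlapped. In wild-type Snai1 cells Rac1 came first at 201 ± 10.7 CPM per kilobase, followed by Rac2 at 154 ± 5.92 and Cyba at 148 ± 21.7, whose ranges overlapped. Ncf4 was at 24.2 ± 4.41, Ncf1 at 5.79 ± 0.871 and Cybb at 1.47 ± 0.546 CPM per kilobase.

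Cybb thus stayed the lowest of the 6 per length in the wild-type group. The partner chain Cyba was 134, 134 and 64.3 times the Cybb level per kilobase in the 3 wild-type libraries. These ratios are of RNA reads, and protein was not measured.

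The share of Rac2 in the summed Rac1 and Rac2 level per kilobase was 42.7%, 43.6% and 43.9% with wild-type Snai1, 53.4%, 53.3% and 52.8% with mutant Snai1, and 50.4%, 52.2% and 51.7% with empty vector. Wild-type values lay below all others. The mean difference of wild-type libraries was -8 percentage points from empty-vector libraries and -9.76 points from mutant libraries. Mutant libraries differed from empty-vector libraries by 1.76 points, also without overlap. Each exact two-sided permutation test gave p = 0.1, the smallest p that 3 against 3 libraries allow, so the design cannot pass 0.05 here.

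**Figure D3:**
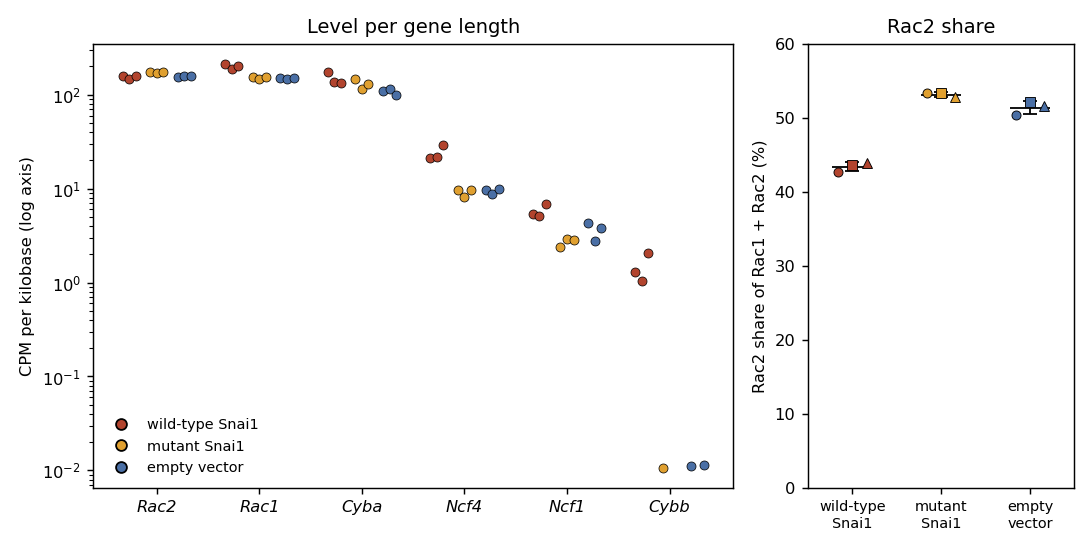
Left, CPM per kilobase of gene length on a log axis for the 6 subunits, 1 point for each library, in wild-type Snai1, mutant Snai1 and empty vector from left to right, and right, the share of Rac2 in the summed Rac1 and Rac2 level in percent, with mean and SD (n = 3). Rac2, Rac1 and Cyba lie highest in every group, the 3 libraries with 0 Cybb reads cannot be shown on a log axis, and the Rac2 share averages 43.4% with wild-type Snai1, 53.2% with mutant Snai1 and 51.4% with empty vector.

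Ncf4 and Rac2 lie 296.6 kb apart on chromosome 15, with 10 genes of the table between them. Of the 5 tested, 3 were called higher with wild-type Snai1 against empty vector in edgeR, beside 25.2% of all tested genes. None was called lower, beside 24.3%. The 3 are named after their values were seen, and a pattern of the region was not tested. Csf2rb2 had a log2 fold change of 1.74 and Csf2rb of 1.85, both receptor chains for interleukin-3-type cytokines whose near-identical sequences make the split of reads uncertain. C1qtnf6 had 1.88. Rac2 at the far side of them did not pass, and Ncf1 and Rac1 on chromosome 5 lie 9275.9 kb apart.

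Genes whose log2 CPM over the 9 libraries was most like a subunit's were found by Pearson r, as a description in which the 3 groups make up most of the spread. For Cybb they were Bst1 (r = 0.996) and Ivl (r = 0.996), and for Ncf4 Canx (r = 0.994) and Myo1f (r = 0.994). Ivl averaged 0 CPM with empty vector and with mutant Snai1, and Bst1 0.0177 and 0 CPM. Like Cybb, both were tested only through their wild-type reads, so a high r with Cybb was bound to follow. Ncf1 was most like Tmem71 (r = 0.984) and Scaf11 (r = 0.976), and Rac1 most like Mdm2 (r = 0.998) and Tln1 (r = 0.996). Cyba was most like Rpl7l1 (r = 0.992) and Cd63 (r = 0.976), and Rac2 most like Fam98b (r = 0.945) and S100a11 (r = 0.943). Among the subunits the closest pair was Cybb and Ncf4 (r = 0.99), while Rac2 ran against Cybb (r = -0.571) and Ncf1 (r = -0.742).

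Related genes were read from 6 lists of 87 genes, of which 70 were tested. With wild-type Snai1 against empty vector 32 were called higher, or 45.7% of those tested beside 25.2% of all tested genes, and 15 lower, or 21.4% beside 24.3%. Several of the counts by list that follow lie near those background shares, and none is read as particular to its list. With mutant Snai1 against empty vector edgeR called 0 of the 70, 3 had an unadjusted p under 0.05, and DESeq2 called 0.

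Of the other NADPH oxidases and partners, 5 of 12 were tested and 2 were higher and 0 lower with wild-type Snai1, with a median log2 fold change of 0.08. Nox1, the colon-type catalytic oxidase that also pairs with p22phox, had 19.7, 10.8 and 10.9 CPM with wild-type Snai1, 2.55, 2.20 and 2.66 CPM with mutant Snai1, and 1.91, 2.12 and 1.45 CPM with empty vector. Wild-type libraries stood well above the rest, with a log2 fold change against empty vector of 2.91 (SE 0.27, adjusted p = 1.28e-05 in edgeR). The mutant value against empty vector was 0.43 (adjusted p = 0.998 in edgeR).

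Hvcn1, the proton channel that balances the charge the oxidase moves, had 103, 85.4 and 75.8 CPM with wild-type Snai1, 51.6, 58.8 and 53.8 CPM with mutant Snai1, and 53.6, 58.0 and 59.6 CPM with empty vector. Its wild-type libraries were above all others, by 0.62 on the log2 scale against empty vector (SE 0.10, adjusted p = 0.000663) and 0.68 against mutant Snai1 (adjusted p = 0.000392) in edgeR. Without both libraries that stood apart 1 of the list was lower, which was Cybc1. Cybc1, a chaperone of the cytochrome, had -0.26 with wild-type Snai1 (adjusted p = 0.0633 in edgeR). Without wild-type replicate 1 that value was -0.42 with adjusted p = 1.3e-05 in edgeR. Rac3, another Rac GTPase, had -0.36 (adjusted p = 0.141 in edgeR), and -0.61 without wild-type replicate 2 (adjusted p = 0.0114 in edgeR). Noxo1, an organizer related to p47phox, had 0.08 (adjusted p = 0.695 in edgeR).

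Of 14 tested genes that control Rac, 10 were higher and 1 lower with wild-type Snai1 against empty vector, with a median log2 fold change of 0.42. Without empty-vector replicate 1 or 2 the number higher was 6, and without wild-type replicate 1 the number lower was 2. Tiam1, a Rac exchange factor, had 0.76 (adjusted p = 3.88e-06 in edgeR). The lower one was Dock8, an exchange factor best known for Cdc42, with -0.69 (adjusted p = 1.11e-05 in edgeR).

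Of 13 tested kinases upstream of oxidase assembly 3 were higher and 4 lower, with a median of 0.03. Pik3cg and Pik3cd, catalytic subunits of phosphoinositide 3-kinase in blood cells, were lower at -0.85 and -0.62 (adjusted p = 2.94e-05 and 0.000171 in edgeR). Akt1 was higher at 0.31 (adjusted p = 0.000281 in edgeR). Prkcb, a protein kinase C that phosphorylates p47phox and was named after its values were seen, had 58, 19 and 39 counts with wild-type Snai1, 0, 0 and 2 with mutant Snai1, and 0 in each empty-vector library. Against a floor of 3 counts in each empty-vector library it was at least 12.4-fold higher with wild-type Snai1. Prkcb is among the 3 kinases called higher. It entered the test only through its wild-type reads, so that call was bound to follow.

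Of 9 tested genes that supply NADPH 3 were higher and 3 lower, with a median of -0.03. Pgd, of the pentose phosphate pathway, had 0.45 (adjusted p = 2.36e-05), Idh1 0.36 (adjusted p = 0.000349) and malic enzyme Me2 -0.58 (adjusted p = 5.6e-05) in edgeR. Of 19 tested genes for the removal of superoxide and peroxide, 10 were higher and 3 lower, with a median of 0.28. Thioredoxin Txn1 had 1.02 (adjusted p = 1.77e-05), peroxiredoxin Prdx5 0.78 (adjusted p = 0.000108) and the lipid peroxidase Gpx4 0.63 (adjusted p = 0.000138) in edgeR.

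Of 10 tested transcription factors known at phagocyte oxidase genes, 4 were higher and 4 lower with wild-type Snai1, with a median of -0.20. Without empty-vector replicate 1 or 2, 2 were lower. Cebpb averaged 5.99 ± 2.70 CPM with wild-type Snai1 against 0.570 ± 0.151 CPM with empty vector, which is 3.38 on the log2 scale (SE 0.42) with adjusted p = 0.000102 in edgeR. Cebpe, a factor of late granulocyte maturation, had 2.29 (adjusted p = 0.000576 in edgeR), and Irf2 had -0.33 (adjusted p = 0.00105 in edgeR). Spi1, which encodes PU.1, and Irf8 were named after their values were seen and did not pass in the fit of all 9 libraries. Spi1 averaged 74.0 ± 13.2 CPM with wild-type Snai1 and 85.3 ± 7.57 CPM with empty vector (adjusted p = 0.173 in edgeR), and Irf8 1.75 ± 0.645 CPM and 2.02 ± 0.289 CPM (adjusted p = 0.582 in edgeR). Without wild-type replicate 3, Spi1 was called lower, at -0.33 on the log2 scale with adjusted p = 0.0217 in edgeR.

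**Figure D4:**
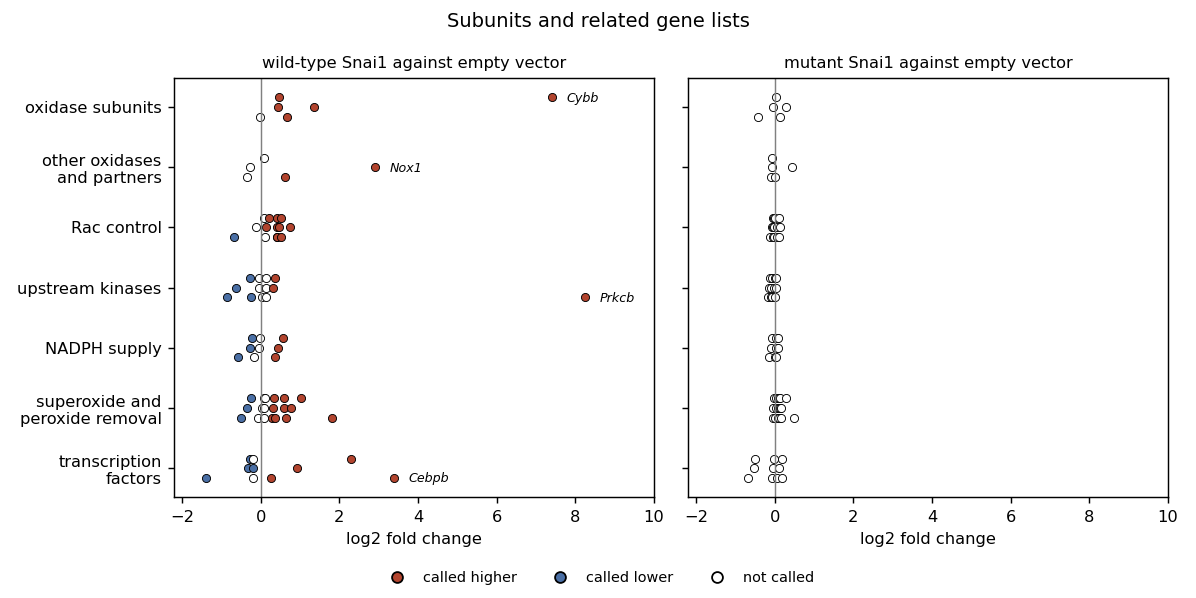
Log2 fold change of the subunits and of the tested members of 6 related gene lists, with wild-type Snai1 against empty vector left and mutant Snai1 against empty vector right. Red points were called higher, blue called lower and white not called, and Cybb and Prkcb are left out of the right panel since both groups held at most 2 reads in all. In the left panel Cybb, Prkcb, Cebpb and Nox1 lie farthest right, at fitted values that for Prkcb depend on 0 counts in the control libraries, and no point on the right was called.

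Markers of other cell types were read in the same libraries. Of 8 macrophage and monocyte markers, 7 were called higher with wild-type Snai1 against empty vector, beside 25.2% of all tested genes. The 1 called lower was Fcgr1, at -0.93 on the log2 scale, beside 24.3% of all tested genes. Ly6c2, at 0 in mutant and empty-vector libraries, was tested only through its wild-type reads, so its call was bound to follow. Adgre1 and Cd14 were close to that, with 18 and 31 counts over the empty-vector libraries. The 8 markers summed to 444 to 882 CPM with wild-type Snai1, 66.1 to 82.4 CPM with mutant Snai1 and 62.9 to 67.9 CPM with empty vector. The 8 neutrophil markers summed to 56.3 to 114, 1.65 to 2.75 and 1.65 to 2.84 CPM in the same groups. Nearly all of the wild-type sum was Lcn2, at 83.1 CPM on average. Ltf and Cxcr2 averaged 1.21 and 0.413 CPM with wild-type Snai1, below their 1.37 and 0.623 CPM with empty vector. Camp averaged 0.679 CPM with wild-type Snai1 and 0.035 CPM with empty vector. Retnlg was at 0 throughout, Camp, Ngp and S100a8 were at 0 with mutant Snai1, and Ngp, S100a8 and S100a9 were at 0 with empty vector. Only 3 neutrophil markers were tested, of which 1, Lcn2, was higher with wild-type Snai1, and 2 were without both libraries that stood apart. Lcn2 had 13 counts over the empty-vector libraries, so its call rests on its wild-type reads.

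The 5 mast cell and basophil markers summed to 3490 to 3800 CPM with wild-type Snai1, 3070 to 3230 with mutant Snai1 and 2740 to 3110 with empty vector. Nearly all of that sum was Cpa3, at 3615, 3157 and 2965 CPM on average, while Mcpt8 was at 0 throughout and Fcer1a, Ms4a2 and Tpsb2 averaged under 0.5 CPM. The 4 megakaryocyte markers gave 729 to 1040, 536 to 633 and 604 to 667 CPM, nearly all from Itga2b and Pf4. Of the 3 tested, Pf4 was called higher with wild-type Snai1 against empty vector and Gp9 lower, with log2 fold changes of 1.89 and -1.96, and without both libraries that stood apart 2 were higher. The 4 erythroid markers summed to 460 to 676, 743 to 840 and 741 to 757 CPM, mostly Tfrc. Lymphoid markers summed to 0.249 to 0.489, 1.25 to 1.73 and 1.25 to 1.56 CPM, and fibroblast markers to 320 to 427, 455 to 476 and 487 to 527 CPM, nearly all of it Pdgfrb, with Col3a1 and Dcn at 0 throughout and Col1a1 and Col1a2 at 0 or 1 reads in a group. The part of these cell types in the subunit differences was not tested.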

How the data were processed

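The authors deposited unnormalized read counts for each gene in 9 HPC7 libraries, made with featureCounts on mm10, per the submitters' processing notes, which also name edgeR 3.15.0 and limma 3.29.12. Libraries were made with a stranded mRNA kit, per the labels' protocols. Aligner, annotation and strand setting are not given in the sources used here. Gene lengths in the deposited table were used for levels per kilobase. The table held 0 columns of other samples. Of 27179 Entrez identifiers, 25275 matched a RefSeq symbol in GRCm38.p6.

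Counts were analysed in R 4.3.3 with edgeR 4.0.16: filterByExpr, TMM scaling, and 1 robust quasi-likelihood fit of all 9 libraries in 3 groups, with Benjamini-Hochberg adjustment over 12484 tested genes and a call at adjusted p under 0.05. The standard error (SE) of a log2 fold change is its size divided by the square root of the F statistic. DESeq2 1.42.0, other scaling and filters, and leaving out libraries were alternatives. Leaving out both libraries that stood apart was chosen after seeing the data. The script was tested on simulated counts. Read totals are similar between libraries. Depth limits genes with few or no reads outside the wild-type group, such as Cybb, Prkcb, Ly6c2, Lcn2, Bst1 and Ivl.

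Genes were named by rule: the 6 members, Snai1, the 3 tested genes of each list with the smallest adjusted p and every tested gene of the other-oxidase list, and the 2 genes most like each member. Overlap partners (Daglb, Gtf2ird2), single marker genes, Prkcb, Spi1, Irf8 and the genes between Ncf4 and Rac2 are outside it and were named after their values were seen, and 1 gene the rule named is not reported here. Members and lists were chosen with earlier results of these data known.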

Additional observations from a re-analysis of the deposited data

How the results depend on the processing

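Over 17 alternatives, wild-type Snai1 against empty vector called 5 subunits and mutant Snai1 called 0 in each. The wild-type log2 fold changes against empty vector ranged from 0.34 to 0.55 for Cyba, 0.52 to 0.85 for Ncf1, 1.21 to 1.45 for Ncf4 and 0.4 to 0.48 for Rac1, with adjusted p at most 0.0395 in edgeR or DESeq2. Between wild-type and mutant Snai1, Rac2 ranged from -0.18 to -0.13 when 1 library was left out and lost its call at -0.13, -0.15 and -0.16, so that 4 subunits were called in place of 5. Cybb there was 10.11 on the fitted log2 scale without mutant replicate 1, since no mutant read then remained. Mutant Snai1 against empty vector called 1 gene, but 30 when only its 6 libraries were fitted, 8 with DESeq2, 29 without wild-type replicate 1 and empty-vector replicate 1, and 1 to 62 when 1 library was left out, 62 without wild-type replicate 1 and 2 without wild-type replicate 2. The cause was not tested.

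Among the values given, a direction turned only for Ncf4, Noxo1, Irf8, Daglb, Gtf2ird2 and Snai1, in differences that did not pass. Ncf4 with mutant Snai1 against empty vector ran from -0.09 to 0.04 with 1 library left out, positive without mutant replicate 2. Noxo1 with wild-type Snai1 ran from -0.02 to 0.22 against either group, negative without wild-type replicate 2. Irf8 ran from -0.43 to 0.07 and was 0.17 without both libraries that stood apart. With mutant Snai1 against empty vector, Daglb ran from -0.07 to 0.03 and Gtf2ird2 from -0.04 to 0.04. Snai1 in wild-type against mutant ran from -0.01 to 0.19. With the replicate number as a block, 5886, 1 and 5732 genes were called in place of 6172, 1 and 5977. Deviations from group means were weakly related in same-numbered libraries (r from -0.087 to 0.21 over 9 pairs, 4 of 9 libraries closest to their own number). Of these pairs 2 exceeded 0.1, beside 1 of 18 pairs with other numbers. Both libraries that stood apart carry number 1. So few pairs cannot show whether the numbers pair the libraries.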
